A study of Caenorhabditis elegans with 10 samples.

Results

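FMRFamide-like peptide genes, which carry the symbol flp- and a number, make up one of the neuropeptide families of the nematode Caenorhabditis elegans. Each flp gene encodes a secretory precursor that is cut at basic residues inside dense core vesicles, after which the peptides are amidated and released. Most of the peptides end in arginine and phenylalanine and act on G protein-coupled receptors, in circuits for locomotion, egg laying, feeding, sleep and fat use. All genes with such a symbol were taken, which gave 31 of the 46748 genes in the deposited tables. Levels, spread between libraries and the difference between strains are described below for these genes.

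The strain F01D4.5(baf20) is named after the gene F01D4.5 and an allele, baf20, whose change the labels do not describe. The other strain, N2, is the standard laboratory wild type and carries no named change. Both were grown from L1 arrest for 48 hours at 20 °C on plates with OP50, the Escherichia coli strain used as food. Each strain had 5 biological replicates of 1000 to 2000 pooled whole worms, from which messenger RNA was sequenced. Nothing in the labels says that replicates came from separate cultures, so the p-values measure the spread between these samples, which may be technical.

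Total counts per library were 9059910 to 11056979. On these totals 3 counts were worth 0.271 to 0.331 CPM, the usual read count normalised to library size. The CPM values of genes use scaled library sizes instead, on which this floor differs somewhat. F01D4.5 itself had 2.15 to 4.03 CPM in F01D4.5(baf20) worms, against 6.44 to 14.35 CPM in N2, so that no library went against its label. The libraries numbered 5 stood apart in both strains. Their scores on the first principal component, which held 56.2% of the variance of log2 CPM, were 66.9 in F01D4.5(baf20) and 76.0 in N2, where the other 8 libraries lay between −40.9 and 7.99. Markers of neurons, epidermis, muscle, intestine, germline, oocytes and sperm were all found. Most of these lists also held a marker at 0 in every library, such as rgef-1 of neurons, unc-15 and unc-22 of muscle and pgl-1 of the germline. In these lists, 11 of 15 neuronal, 8 of 9 muscle and 5 of 8 germline markers are counted in several isoform rows. Such rows may miss reads, as described below, so a 0 is not read as absence.

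How a flp gene was counted set how far its level can be read. The deposited tables keep the isoforms of many genes in rows of their own, and 22 of the 31 flp genes had 1 row, 7 had 2 rows and 2 had 3 rows. The 9 genes with several rows held 2804 of the 39603 flp counts in all libraries together. Reads that fit more than 1 isoform appear to be missing from such rows. The 3 rows of flp-1 show this: F23B2.5a held all 358 counts, although only 41 of its 681 exon bases lie in no other flp-1 row of the Ensembl annotation, which may differ from the one the submitters used. For flp-2, W07E11.3a held all 153 counts on 93 such bases. For flp-11, the sleep-promoting peptide gene of the RIS neuron, K02G10.4c held all 291 counts on 69 bases.

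The counts of flp-12 lay almost wholly in 1 isoform. C05E11.8a held 1802 counts on 171 bases of its own, while C05E11.8b held 4 counts on 584 bases of its own. For flp-8 both isoforms were seen, with 76 counts for F31F6.4a and 117 for F31F6.4b.

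The 4 flp genes that did not pass the filter on low counts all had several rows. flp-18, which encodes ligands of the receptors NPR-1, NPR-4 and NPR-5 in foraging and fat storage, and flp-5 had 0 counts in all 10 libraries. flp-22 had 1 count, in N2, and flp-23 had 2, in F01D4.5(baf20). Since shared reads appear to have been dropped, a count of 0 here can speak only for bases in no other row. Such bases numbered 160 in the flp-18 row Y48D7A.2.2 and 70 in the flp-5 row C03G5.7.2. For flp-23, the row F22B7.2b held its 2 counts on 203 such bases. The level of the whole gene cannot be read from these counts. The remaining 27 flp genes were tested, 22 with 1 row and 5 (flp-1, flp-2, flp-8, flp-11 and flp-12) with several.

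The chromosomes of the family were uneven. Of the 31 genes, 13 (41.9%) lie on the X chromosome, against 13.7% of the 19985 annotated protein-coding genes. A group of 3 of them, flp-28, flp-3 and flp-2, lies within 7932 bases on the minus strand, at chrX:10087314-10095245 (WBcel235). Exons of 5 flp genes share 5 to 21 bases with a gene of the other strand, so reads there may be of either gene if strand was ignored, which is not known.

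Levels of different genes were compared as TPM, which divides counts by exon length and scales every library to the same sum. flp-28 had the highest counted level of the family in every library, where genes with several rows may be understated. It had 104.5 ± 12.1 TPM in F01D4.5(baf20) and 108.1 ± 11.4 TPM in N2 (SD, n = 5 each), and its lowest library, at 88.8 TPM, lay above the highest library of any other flp gene, at 81.7 TPM for flp-10. Next came flp-10, with 63.3 ± 10.7 TPM in F01D4.5(baf20) and 64.6 ± 8.18 TPM in N2. flp-10 encodes peptides that inhibit egg laying through the receptor EGL-6. flp-24, one of the peptide genes of the ALA neuron in stress-induced sleep, had 60.7 ± 6.69 TPM in F01D4.5(baf20) and 63.3 ± 7.36 TPM in N2. flp-9 had 60.4 ± 11.4 TPM in F01D4.5(baf20) and 63.4 ± 9.76 TPM in N2. These 3 neighbours in the order lay within each other's spread. flp-6, which is made in the thermosensory AFD neurons among others, followed with 48.7 ± 10.7 TPM in F01D4.5(baf20) and 51.5 ± 8.35 TPM in N2.

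The 5 highest genes held 49.8% of the summed flp TPM, and flp-28 alone 15.4%. That sum includes the 9 genes with several rows, whose levels may be understated, so both shares may be too high. Among genes with 1 row the lowest was flp-25, at 5.63 ± 1.92 TPM in F01D4.5(baf20) and 5.59 ± 3.28 TPM in N2. The lowest mean of a tested gene was that of flp-2, at 1.27 to 4.16 TPM, which may understate its level because of its rows. Between these ends most neighbours overlapped, for instance flp-17 (20.8 ± 4.94 TPM in F01D4.5(baf20), 22.1 ± 3.63 TPM in N2) and flp-7 (19.9 ± 10.5 TPM in F01D4.5(baf20), 22.2 ± 13.1 TPM in N2).

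**Figure D1:**
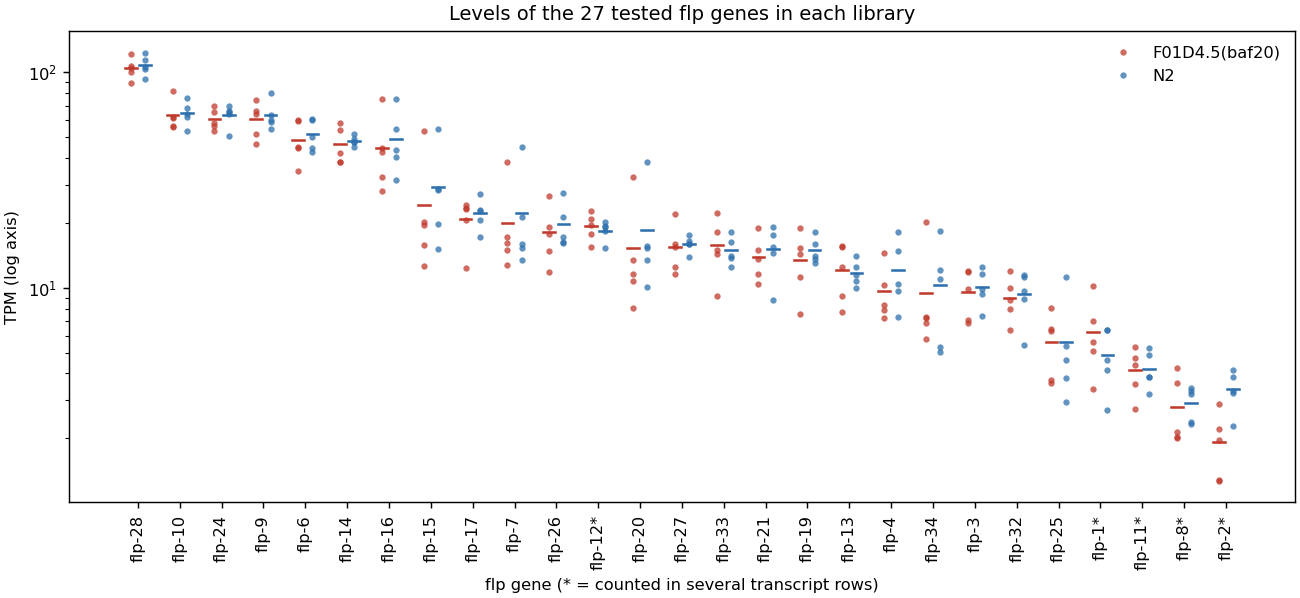
TPM on a log axis for the 27 tested flp genes, ordered by their mean over 10 libraries; each point is 1 library, F01D4.5(baf20) in red to the left of N2 in blue, and the short lines are means of 5. flp-28 lies above all others, and in flp-15, flp-7 and flp-20 a single point per strain stands above the rest.

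The single comparison of the design asks what differs in F01D4.5(baf20) worms relative to N2. None of the 27 flp genes passed an adjusted p of 0.05 in edgeR's quasi-likelihood test, where 0.0649% of the 12332 genes tested did (0.27% in DESeq2). At an unadjusted p under 0.05 there was 1 flp gene, flp-2, which lay lower, or 3.70% of the family. Of all genes, 5.76% had such a p, 3.52% higher and 2.24% lower in F01D4.5(baf20). In DESeq2's test, too, 0 flp genes passed the adjusted threshold and flp-2 alone had an unadjusted p under 0.05. No flp gene had all libraries of one strain above all of the other, against 1.44% of all genes (0.795% higher, 0.649% lower). Since whole worms were sequenced, fewer cells of a type and less RNA per cell cannot be told apart in any of these values.

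The family as a whole had small differences, mostly on the lower side. The log2 fold change was negative in 23 of 27 genes, where 46.8% of all genes were negative, and the median was −0.11, against 0.02 for all genes tested. The count moved with 1 library: without N2 replicate 5, which leaves its counterpart in F01D4.5(baf20) in place, 10 of 27 were negative and the median was 0.04, beside 0.04 for all genes. Without both libraries numbered 5, 18 of 27 were negative with a median of −0.05, where 47.4% of all genes were negative with a median of 0.02. Summed over the family, flp genes had 402.7, 393.1, 312.6, 329.8 and 477.9 CPM in F01D4.5(baf20) replicates 1 to 5, against 334.0, 397.7, 368.0, 411.3 and 548.6 CPM in N2. The strains overlapped over most of this range, and the highest library of each strain was the one numbered 5.

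The precision differed between members. Standard errors of the log2 fold change ran from 0.133 for flp-28 to 0.500 for flp-20. For 20 of the 27 genes the 95% interval lay within a 2-fold difference either way, and for 12 within 1.5-fold. For flp-28 it ran from −0.36 to 0.23 and for flp-14 from −0.39 to 0.21 on the log2 scale. For flp-20, flp-15, flp-7 and flp-34 the intervals reached from below −1 to about 0.8 or above.

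**Figure D2:**
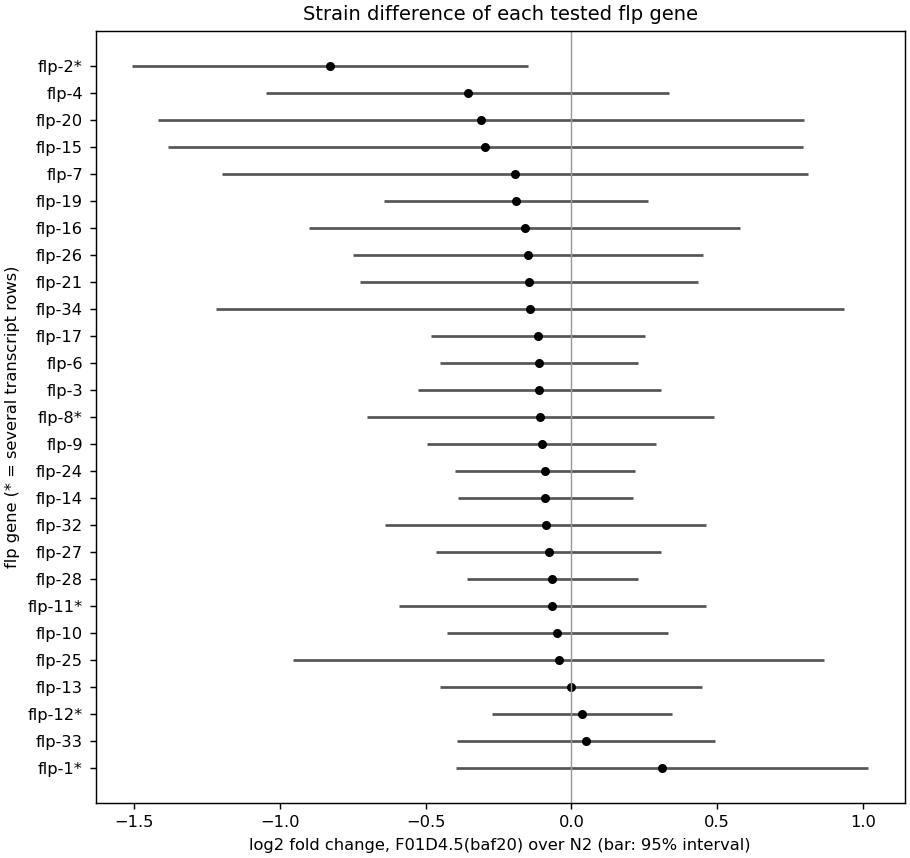
Log2 fold change of F01D4.5(baf20) over N2 for the 27 tested flp genes, with points for the edgeR estimate and bars for its 95% interval. The interval of flp-2, from −1.51 to −0.15, is the single one that does not include 0.

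The FLP-2 peptides act in locomotor arousal through the receptor FRPR-18. flp-2 had 1.23, 0.701, 1.11, 0.719 and 1.81 CPM in F01D4.5(baf20) replicates 1 to 5. In N2 it had 1.27, 1.86, 1.84, 2.18 and 2.70 CPM. F01D4.5(baf20) replicate 5 lay inside the N2 range, and the other 4 libraries lay below the lowest N2 library. The strains differed by −0.83 on the log2 scale (SE 0.309), with an unadjusted p of 0.0213 and an adjusted p of 0.790 by edgeR's quasi-likelihood test. These values rest on 54 counts in F01D4.5(baf20) and 99 in N2, all in the row W07E11.3a. The unadjusted p was 0.05 or more without F01D4.5(baf20) replicate 2 or 4 or without N2 replicate 5. The strains did not overlap in flp-2 when N2 replicate 1, F01D4.5(baf20) replicate 5 or both libraries numbered 5 were left out, settings in which 2.70%, 6.03% and 7.81% of all genes did not overlap.

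Its neighbours on the X chromosome, flp-3 and flp-28, did not share this value. The log2 fold change of flp-3 was −0.11 (SE 0.190) and that of flp-28 −0.07 (SE 0.133). flp-28 had 53.4, 51.2, 50.5, 45.2 and 68.4 CPM in F01D4.5(baf20), against 46.4, 59.1, 51.8, 62.4 and 61.4 CPM in N2. The ranges of the strains overlapped, and their order differed between libraries. Whether flp-2 differs from its neighbours was not tested.

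flp-1, whose peptides from the AVK interneurons and other cells restrain locomotion, had the largest positive value. Its levels were 6.35, 4.31, 3.23, 3.59 and 2.37 CPM in F01D4.5(baf20), against 2.91, 4.13, 2.59, 1.73 and 4.67 CPM in N2. F01D4.5(baf20) replicate 1 was the highest of the 10 libraries and N2 replicate 4 the lowest. The strains differed by 0.31 on the log2 scale (SE 0.321), which edgeR gave an adjusted p of 0.936, again from rows that appear to miss shared reads. It was 0.07 without F01D4.5(baf20) replicate 1, 0.15 without N2 replicate 4, 0.49 without N2 replicate 5 and 0.62 without both libraries numbered 5.

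Neither flp-17 nor flp-10 passed the threshold. The FLP-17 peptides, which come from the carbon dioxide-sensing BAG neurons, inhibit egg laying through EGL-6 together with those of flp-10. flp-17 had 16.1, 15.3, 15.6, 14.01 and 9.16 CPM in F01D4.5(baf20) and 17.98, 15.8, 13.7, 15.3 and 13.3 CPM in N2, with the libraries numbered 5 lowest in each strain. flp-10 had 37.8, 37.8, 35.3, 35.5 and 57.0 CPM in F01D4.5(baf20) and 33.1, 39.8, 39.5, 42.9 and 54.8 CPM in N2. Here the same 2 libraries were the highest of their strain. The log2 fold changes were −0.12 (SE 0.167) for flp-17 and −0.05 (SE 0.173) for flp-10.

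flp-24, flp-13 and flp-11, which have roles in sleep, did not pass it either. flp-24 had 28.2, 26.3, 21.97, 23.4 and 26.7 CPM in F01D4.5(baf20), against 20.6, 27.8, 26.0, 26.99 and 33.2 CPM in N2. Its log2 fold change was −0.09 (SE 0.140). flp-13, which also acts from ALA in stress-induced sleep, had 8.52 ± 2.24 CPM in F01D4.5(baf20) and 8.53 ± 1.49 CPM in N2 (SD, n = 5 each), and its interval ran from −0.45 to 0.45 on the log2 scale. flp-11 had 2.86 ± 0.644 CPM in F01D4.5(baf20) and 2.99 ± 0.786 CPM in N2, from its 1 row with counts.

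Other members named for level or rank of p overlapped as widely. flp-6 had 39.3, 39.2, 29.9, 30.5 and 26.1 CPM in F01D4.5(baf20) and 33.1, 41.7, 28.4, 40.4 and 34.7 CPM in N2, a difference of −0.11 on the log2 scale (SE 0.154). flp-9 had 37.97, 42.3, 27.1, 30.3 and 41.4 CPM in F01D4.5(baf20) and 31.5, 35.7, 34.01, 37.2 and 53.8 CPM in N2. Its log2 fold change was −0.10 (SE 0.179), and N2 replicate 5 was the highest of its 10 libraries. flp-19 had 9.32, 11.3, 6.95, 8.89 and 5.20 CPM in F01D4.5(baf20), against 9.72, 11.5, 7.99, 8.73 and 9.66 CPM in N2. F01D4.5(baf20) replicate 5 was its lowest library, and the strains differed by −0.19 on the log2 scale (SE 0.205). By edgeR, the adjusted p was 0.936 to 0.972 over flp-1, flp-6, flp-9, flp-10, flp-17, flp-19, flp-24 and flp-28. For flp-8, flp-11, flp-12, flp-13, flp-14, flp-21, flp-26, flp-27, flp-32 and flp-33 the log2 fold changes lay between −0.15 and 0.05.

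A subset of the genes differed between libraries of the same strain, with the libraries numbered 5 highest. In 10 of the 27 genes the replicate 5 library was at least 1.5-fold above the mean of the other 4 libraries of its strain, in both strains. That is 37.0% of the family, against 16.9% of all genes tested. These were flp-2, flp-4, flp-7, flp-15, flp-16, flp-20, flp-21, flp-25, flp-26 and flp-34. No flp gene was 1.5-fold lower in both replicate 5 libraries, against 5.02% of all genes. The ratio is a description of 2 libraries and was not tested, and the value of 1.5 was chosen after the data were seen.

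flp-20 spanned the widest range of log2 CPM in the family. Its peptides are released by touch receptor neurons and act in arousal by mechanical stimuli. It had 5.32, 6.11, 5.04, 3.77 and 16.8 CPM in F01D4.5(baf20), against 4.63, 6.41, 7.02, 7.27 and 20.6 CPM in N2. The replicate 5 library was 3.33 times the mean of the others in F01D4.5(baf20) and 3.25 times in N2, while libraries 1 to 4 of the strains overlapped.

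flp-15, whose peptides are ligands of the receptor NPR-3, followed the same order. It had 7.98, 8.12, 5.24, 6.56 and 24.4 CPM in F01D4.5(baf20), against 6.17, 8.37, 11.6, 11.9 and 26.1 CPM in N2. The ratios of replicate 5 to the others were 3.5 in F01D4.5(baf20) and 2.74 in N2. Without F01D4.5(baf20) replicate 5, flp-15 joined flp-2 at an unadjusted p under 0.05, with a log2 fold change of −0.88. In that setting 16.4% of all genes had such a p. Without N2 replicate 5 the log2 fold change of flp-15 was 0.14.

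flp-34, which encodes a peptide related to neuropeptide Y that acts in aversive olfactory learning, had 4.71, 4.71, 4.54, 3.86 and 14.8 CPM in F01D4.5(baf20). In N2 it had 3.45, 3.41, 7.13, 7.998 and 13.9 CPM. Replicate 5 was highest in both strains, and N2 replicates 3 and 4 lay between it and the remaining libraries. flp-25 had 3.69, 3.71, 2.22, 2.16 and 5.31 CPM in F01D4.5(baf20), against 1.73, 2.79, 3.13, 2.27 and 7.68 CPM in N2. flp-4 had 6.76, 5.41, 4.84, 5.30 and 10.7 CPM in F01D4.5(baf20), against 4.81, 7.13, 6.37, 9.91 and 14.02 CPM in N2. In both genes the libraries numbered 5 were again the highest of their strain. Log2 fold changes between strains were −0.14 (SE 0.487) for flp-34, −0.04 (SE 0.414) for flp-25, −0.30 (SE 0.491) for flp-15, −0.31 (SE 0.500) for flp-20 and −0.36 (SE 0.315) for flp-4, with adjusted p by edgeR between 0.927 and 0.988.

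A pair of members outside the rule for named genes was chosen because of its values in these libraries. flp-7, whose peptides from the ASI neurons promote fat loss in the intestine through NPR-22, had 11.1, 10.1, 8.87, 12.04 and 29.7 CPM in F01D4.5(baf20), against 10.5, 9.61, 14.6, 11.1 and 36.2 CPM in N2. flp-16 had 25.1, 25.8, 16.7, 19.6 and 49.7 CPM in F01D4.5(baf20), against 18.7, 24.7, 25.6, 32.5 and 51.4 CPM in N2. In both, replicate 5 lay above all libraries numbered 1 to 4 of either strain. Between the strains flp-7 differed by −0.19 (SE 0.454) and flp-16 by −0.16 (SE 0.335) on the log2 scale.

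Other members did not follow. In flp-3, flp-6, flp-17 and flp-33 the replicate 5 library lay below the mean of the others in both strains. Their ratios were 0.749, 0.752, 0.600 and 0.589 in F01D4.5(baf20), against 0.785, 0.966, 0.847 and 0.923 in N2. In 7 genes, flp-1, flp-8, flp-11, flp-13, flp-14, flp-19 and flp-27, replicate 5 was above the mean of the others in N2 and below it in F01D4.5(baf20). For flp-1 the ratio was 0.543 in F01D4.5(baf20) and 1.65 in N2. The opposite pattern was found in 0 of the flp genes. How many of all genes tested had either pattern was not computed. N2 replicate 5 was the highest of the 10 libraries in 13 of 27 genes and the lowest in 0, while F01D4.5(baf20) replicate 5 was the highest in 3 and the lowest in 5. F01D4.5(baf20) replicate 3 was the lowest library in 8 genes. Shares of all genes tested were not computed for these counts, so they are not read as particular to flp genes. Libraries of F01D4.5(baf20) also differed apart from number 5. In replicates 1 and 2, 18 and 15 of the 27 genes lay above their own mean over 10 libraries, against 2 and 5 in replicates 3 and 4. The share of all genes was not computed here either. Over all genes tested, the same libraries also parted on the second principal component (16.9% of the variance). Replicates 1 and 2 scored −40.3 and −41.1 there, against 18.9 and 15.3 for replicates 3 and 4.

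**Figure D3:**
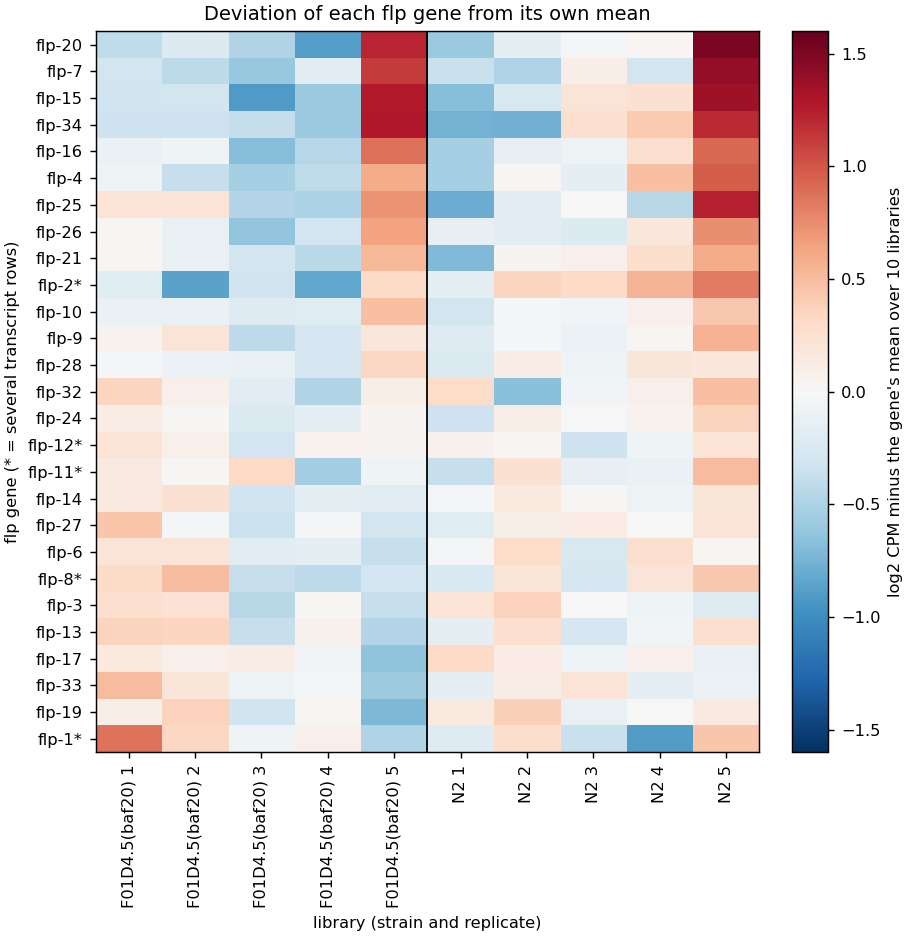
Log2 CPM of each tested flp gene minus its own mean over 10 libraries, with F01D4.5(baf20) libraries 1 to 5 left of N2 libraries 1 to 5, and genes ordered by the smaller of their replicate 5 ratios in the 2 strains. Red is higher and blue lower than the mean; the columns numbered 5 are red in the upper rows, and the lower rows of F01D4.5(baf20) replicate 5 are blue.

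**Figure D4:**
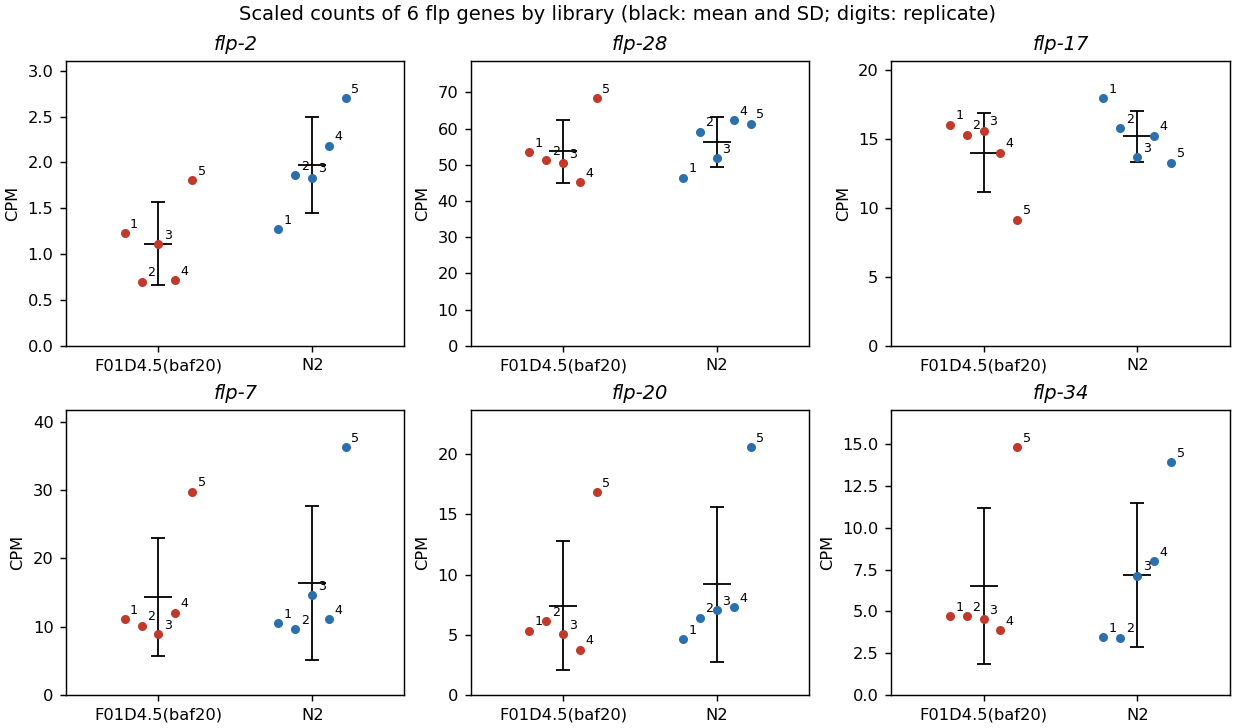
CPM by library for flp-2, flp-28, flp-17, flp-7, flp-20 and flp-34, with F01D4.5(baf20) in red left of N2 in blue, digits for the replicate number and black bars for mean and SD (n = 5). In flp-7, flp-20 and flp-34 the library numbered 5 is the highest of each strain, and in flp-17 it is the lowest.

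Some marker lists of other tissues stood apart in the libraries numbered 5, and others did not. The mean log2 CPM of 11 tested of 15 neuronal markers was 3.79 in F01D4.5(baf20) replicate 5 and 3.78 in N2 replicate 5, where the other 8 libraries had 3.24 to 3.58. Their summed level was instead lowest in the library numbered 5 of each strain, over ranges of 536.7 to 620.3 CPM in F01D4.5(baf20) and 494.4 to 569.6 CPM in N2. For 10 tested of 12 epidermal and cuticle markers the mean was 4.81 in F01D4.5(baf20) replicate 5 and 6.15 in N2 replicate 5, against 1.36 to 3.79 elsewhere. Summed over that list, F01D4.5(baf20) libraries had 34.8 to 469.6 CPM and N2 libraries 53.8 to 1066 CPM, with dpy-10 at 0. The 8 oocyte and egg markers were lowest in these libraries, at 8.83 in F01D4.5(baf20) and 8.38 in N2, against 9.23 to 9.86 in the others. Transmitter neuron markers (2.85 in both) and sperm markers (4.83 in F01D4.5(baf20), 4.81 in N2) lay inside the range of the other libraries. Body wall muscle markers were highest of their strain in F01D4.5(baf20) replicate 5, at 5.37, and lowest in N2 replicate 5, at 5.13. Between the strains, the neuronal markers were negative in 8 of 11 with a median log2 fold change of −0.12, beside −0.11 for the flp genes. All 10 tested epidermal and cuticle markers had negative log2 fold changes (median −1.36) and all 8 oocyte and egg markers positive ones (median 0.22), with 0 past the adjusted threshold in edgeR. The part of these tissues in the flp values was not tested.

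**Figure D5:**
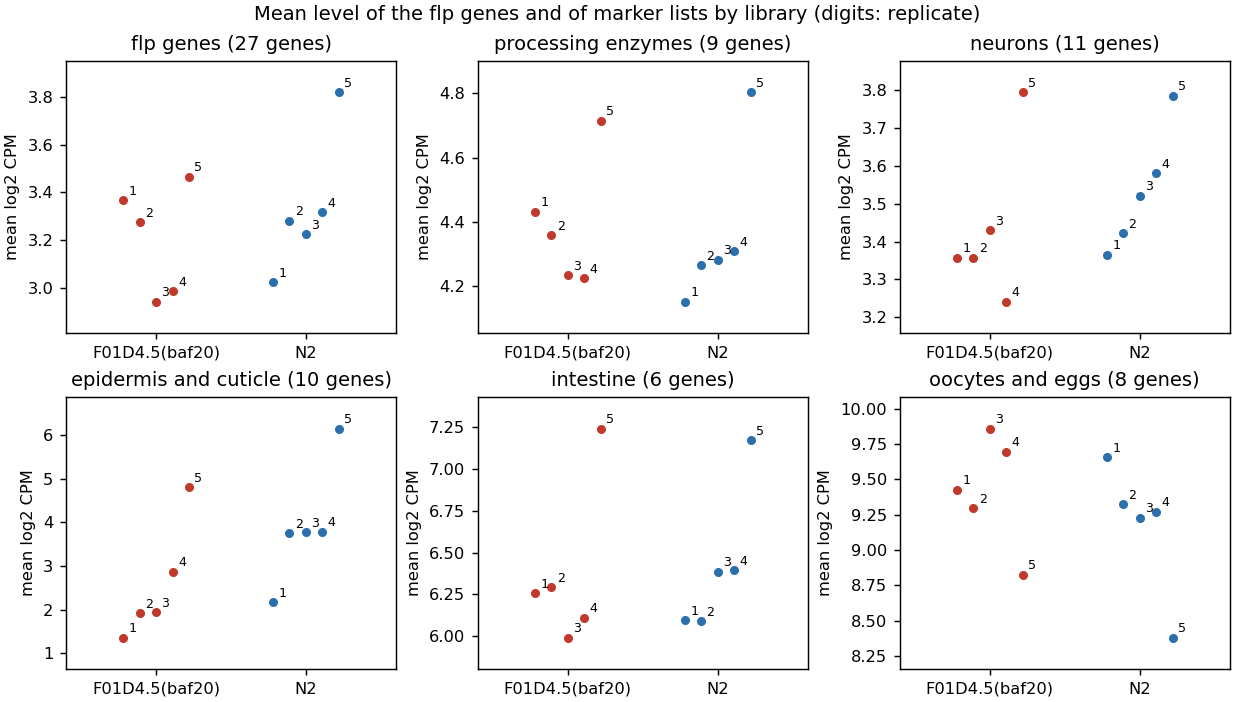
Mean log2 CPM over the tested members of the flp family and of 5 gene lists, 1 point per library with its replicate number, F01D4.5(baf20) in red left of N2 in blue; the axes do not start at 0 and differ between panels. The libraries numbered 5 are the highest of their strain for flp genes, processing enzymes, neurons, epidermis and cuticle, and intestine, and the lowest for oocytes and eggs.

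Genes that process and release the peptides did not pass the threshold either. Of 23 genes on the lists for processing enzymes and dense core vesicles, 19 were tested and 0 passed in either direction by edgeR or DESeq2. Their median log2 fold change was −0.02, with 9 positive and 10 negative. egl-3, the proprotein convertase that makes the first cuts in FLP precursors, is counted in 4 rows and was under the filter, at 0.306 ± 0.215 CPM in F01D4.5(baf20) and 0.313 ± 0.229 CPM in N2 (SD, n = 5 each). egl-21, the carboxypeptidase that trims the basic residues afterwards, had a log2 fold change of −0.26 (SE 0.214) on 3 rows. Among single-row genes, cpd-1, a carboxypeptidase D homologue, had 67.9 ± 5.11 CPM in F01D4.5(baf20) and 60.0 ± 2.24 CPM in N2. For pghm-1 and pamn-1, enzymes of peptide amidation, the strains differed by −0.27 (SE 0.191) and by 0.16 (SE 0.116) on the log2 scale.

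hid-1, which is needed to form and load dense core vesicles, was the 1 of 19 tested genes of these lists at an unadjusted p under 0.05, where 5.76% of all genes had such a p, and the 1 whose strains did not overlap, where 1.44% of all genes did not. It had 1.70 ± 0.754 CPM in F01D4.5(baf20) and 3.78 ± 0.914 CPM in N2, which is −1.16 on the log2 scale (SE 0.316). The unadjusted p was 0.00375 and the adjusted p 0.532 by edgeR's quasi-likelihood test. It is counted in 2 rows, so its level may miss shared reads, and it did not pass over all genes. In the same list ida-1, a dense core vesicle protein related to tyrosine phosphatases, had 118.4 ± 40.5 CPM in F01D4.5(baf20) and 139.5 ± 37.3 CPM in N2. For rund-1 and tbc-8, which act in vesicle maturation, the values were −0.31 (SE 0.181) and 0.44 (SE 0.292) on that scale.

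Of 24 listed receptors of FLP peptides, 17 were tested. Among the 24, 8 are counted in several rows and their levels may be too low, npr-5 with its 2 rows among them and npr-4 and dmsr-1 at 0. With all genes of the frpr and dmsr families, 25 of 45 were tested and 0 passed or had an unadjusted p under 0.05, with 14 positive and 11 negative and a median log2 fold change of 0.02. frpr-16 had 1.27 ± 0.338 CPM in F01D4.5(baf20) and 1.78 ± 0.603 CPM in N2, while dmsr-2 had 6.74 ± 1.61 CPM in F01D4.5(baf20) and 5.36 ± 0.768 CPM in N2. npr-5 had 0.945 ± 0.362 CPM in F01D4.5(baf20) and 1.36 ± 0.733 CPM in N2. npr-1, the receptor of FLP-18 and FLP-21 in social feeding, was under the filter at 0.769 ± 0.360 CPM in F01D4.5(baf20) and 0.541 ± 0.176 CPM in N2. Its ligand gene flp-21 had 5.82 ± 1.68 CPM in F01D4.5(baf20) and 6.42 ± 1.99 CPM in N2.

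Neprilysin-like peptidases, membrane enzymes that degrade peptides outside the cell, were the last step described. Of 23 nep genes, 15 were tested, 10 positive and 5 negative with a median of 0.09. At an unadjusted p under 0.05 there was 1 of the 15, beside 5.76% of all genes. This was nep-18, with 25.6 ± 4.99 CPM in F01D4.5(baf20) and 19.9 ± 2.82 CPM in N2 and an edgeR-adjusted p of 0.862 for a difference of 0.37 on the log2 scale (SE 0.164), while 0 passed the adjusted threshold. nep-10 had 14.85 ± 1.70 CPM in F01D4.5(baf20) and 17.7 ± 1.87 CPM in N2, and nep-8 had 44.95 ± 9.53 CPM in F01D4.5(baf20) and 38.5 ± 4.18 CPM in N2.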

How the data were processed

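Messenger RNA of 5 F01D4.5(baf20) and 5 N2 samples was measured, with libraries from the TruSeq Stranded mRNA kit per the labels' protocols. The authors deposited raw counts for 57827 rows per library, with the isoforms of a gene in rows of their own. Per the submitters' processing notes, the tools were DESeq2, HTSeq, HISAT2 and CASAVA, and the builds ce10 and ce11; versions and the strand setting of the counting are not given in the sources used here.

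Rows were matched by name to the Ensembl release 115 annotation on WBcel235 (57515 rows, 99.8% of counts) and summed per gene. The strain comparison used edgeR 4.0.16 (R 4.3.3): filterByExpr (minimum count 10, minimum total count 15), TMM scaling, robust quasi-likelihood fit with strain as the only term, two-sided, Benjamini-Hochberg over 12332 genes, threshold 0.05. CPM uses TMM-scaled library sizes, log2 CPM a prior count of 2, and TPM the union of annotated exons. DESeq2 1.42.0 and other scalings, filters and left-out libraries were tried as alternatives. Floors and depth cover counting error only.

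Of all pairs within a strain, F01D4.5(baf20) replicates 1 and 2 differed least (chi-square per degree of freedom 2.21, other pairs 5.83 to 132), and both were kept as samples. Whether they are independent is not known, and if not, n = 5 is too high for this strain. With these 2 summed, 26 of 27 flp log2 fold changes were negative (median −0.145), where 47.9% of all genes were. In that edgeR fit flp-2 alone had an unadjusted p under 0.05, beside 3.66% of all genes. Members and gene lists were chosen with earlier results of these data known. Every library's value is given for flp genes past the threshold or without overlap between strains, the 6 with the smallest p, the 5 with the highest TPM and the 4 with the widest range of log2 CPM. From the other lists egl-3, egl-21 and up to 3 genes with the smallest p were named. Of the transmitter neuron, sensory cilia, muscle, intestine, germline and sperm marker lists, 0 genes passed the adjusted threshold.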

Additional observations from a re-analysis of the deposited data

Results flagged for a closer look

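In each strain's group of 5 libraries, a value was singled out where its gap to the nearest other library was more than 0.71 of the group's range. Of 54 groups examined (27 flp genes in 2 strains), 11 (20.4%) gave such a value, and all 11 were high values of a library numbered 5. Chance gives about 1 in 20 groups, but the groups share the same libraries. Over all genes tested, 15.5% of groups gave such a value, and 11.5% a high value of a library numbered 5.

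In F01D4.5(baf20) replicate 5, flp-7 had 29.7 CPM, against 8.87 to 12.04 CPM in the other 4 libraries of the strain. In the same library flp-10 had 57.0 CPM (others 35.3 to 37.8), flp-15 had 24.4 CPM (others 5.24 to 8.12), flp-16 had 49.7 CPM (others 16.7 to 25.8), flp-20 had 16.8 CPM (others 3.77 to 6.11) and flp-34 had 14.8 CPM (others 3.86 to 4.71).

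In N2 replicate 5, flp-7 had 36.2 CPM, against 9.61 to 14.6 CPM in the other N2 libraries. flp-9 had 53.8 CPM there (others 31.5 to 37.2), flp-15 had 26.1 CPM (others 6.17 to 11.9), flp-20 had 20.6 CPM (others 4.63 to 7.27) and flp-25 had 7.68 CPM (others 1.73 to 3.13). flp-7, flp-15 and flp-20 stood out in both strains.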

How the results depend on the processing

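No flp gene passed the adjusted threshold under any of the 19 alternatives. At an unadjusted p under 0.05 there were 0 with a filter of 5 CPM in 5 samples, which leaves flp-2 out, and 0 to 2 with 1 library left out, where the share of all genes was 5.09% and 3.61% to 16.4%. Strains did not overlap in 1 flp gene, flp-2, without both libraries numbered 5 (7.81% of all genes), and in 0 to 1 with 1 library left out (1.66% to 6.03%). The count of negative log2 fold changes, added after the data were seen, ran from 10 to 26 with 1 library left out. flp-25 turned positive with the replicate block (0.054) and without both libraries numbered 5 (0.25). With 1 library left out the log2 fold change ran from 0.065 to 0.49 for flp-1, from −0.60 to −0.10 for flp-4, from −0.26 to 0.46 for flp-25, from −0.20 to 0.065 for flp-10, from −0.88 to 0.14 for flp-15, from −0.18 to 0.003 for flp-17, from −0.86 to 0.22 for flp-20, from −0.69 to 0.24 for flp-34 and from −0.17 to 0.049 for flp-9. The cause was not tested. With the replicate number as a block, 23 of 27 log2 fold changes were negative and 1 flp gene, flp-2, had an unadjusted p under 0.05, where 47.3% and 11.4% of all genes did. With the block the standard error was 0.19 against 0.5 for flp-20, 0.224 against 0.491 for flp-15 and 0.25 against 0.487 for flp-34. Same-numbered samples correlated at 0.153, 0.145, 0.00185, −0.131 and 0.822 for numbers 1 to 5. Number 5 alone matched best with its own number. These correlations use deviations from strain means that include the libraries numbered 5. They therefore cannot decide whether samples numbered 1 to 4 were handled in pairs. The libraries numbered 5 shared a difference across strains. The main fit, with strain as its only term, counts that difference as spread. Without both libraries numbered 5, flp-2 alone had an unadjusted p under 0.05 by edgeR, where 15.4% of all genes did. The processing, receptor and peptidase lists had 0 calls with DESeq2 and without both libraries numbered 5.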
